A study of Mus musculus with 9 samples.

Results

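Heat shock proteins and cytosolic chaperones are the proteins that fold, refold and sort other proteins. The 42 genes described here were taken from the count table by gene symbol, out of 53700 genes in all. The rule uses names and no measured value, but the list was chosen with earlier results of these data known. They fall into 8 genes of the HSP70 and HSP110 family, 7 J-domain, BAG and ubiquitin ligase partners of HSP70, 8 genes for HSP90 and its partners, 6 small heat shock proteins, 3 mitochondrial chaperones, 8 subunits of the cytosolic chaperonin CCT and 2 heat shock factors. Another class runs across these and holds 15 cytosolic genes listed as targets of the heat shock factor HSF1. It includes Hspa8 and Hsp90ab1, which are described below as constitutive. The small heat shock proteins and mitochondrial chaperones, Hspb1, Cryab, Hspd1 and Hspe1 among them, were kept out of this class whatever their own regulation. All 42 genes passed the filter on low counts.

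RNA was sequenced from C2C12 cells, an established mouse myoblast line, in 3 groups of 3 libraries. All wells were moved to the low-serum medium OPTI-MEM and starved for 12 h, when the Control wells were harvested. The Valine wells then went on for 36 h with the branched-chain amino acid valine at 0.45 mM. For Val+PA, 24 h with valine at the same 0.45 mM was followed by 12 h with the saturated fatty acid palmitic acid at 75 μM. A single plate with 6 wells stood for each group, and 3 of its wells were sequenced. The p-values therefore cover only the spread between wells on a plate. The Valine and Val+PA wells were also collected later than the Control wells and came from other plates, so valine, time in culture and plate cannot be told apart. The labels do not say whether valine stayed in the medium during the palmitic acid step.

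HSP70 binds unfolded stretches of proteins in a cycle driven by ATP. J-domain proteins deliver the clients and nucleotide exchange factors release them. HSP90 then matures a set of kinases and steroid receptors, CCT folds actin and tubulin inside a closed double ring, and the small heat shock proteins hold unfolded proteins without using ATP. HSF1 is kept inactive by chaperones and, when unfolded proteins draw these away, forms trimers that bind heat shock elements, which are inverted repeats of the unit GAA, in front of the inducible genes. In muscle, small heat shock proteins such as alpha-B crystallin protect the contractile apparatus.

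The promoters of the inducible HSP70 pair are shown first, because these 2 genes were among the members with the largest falls and their copies are nearly the same. Sequences are RefSeq windows of 250 bases before the transcription start, on build GRCm38.p6 and read 5′ to 3′ on the gene's strand. Capitals mark a pair of inverted units, GAANNTTC or TTCNNGAA, which read the same on both strands and can overlap each other. Hspa1a lies on the minus strand with its window at chr17:34972157-34972406, and Hspa1b lies on the same strand with its window at chr17:34959239-34959488.
Hspa1a: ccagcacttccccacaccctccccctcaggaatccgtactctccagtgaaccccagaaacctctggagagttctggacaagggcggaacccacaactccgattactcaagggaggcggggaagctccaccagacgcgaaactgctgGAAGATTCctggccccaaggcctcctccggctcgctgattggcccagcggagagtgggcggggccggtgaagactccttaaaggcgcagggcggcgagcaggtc
Hspa1b: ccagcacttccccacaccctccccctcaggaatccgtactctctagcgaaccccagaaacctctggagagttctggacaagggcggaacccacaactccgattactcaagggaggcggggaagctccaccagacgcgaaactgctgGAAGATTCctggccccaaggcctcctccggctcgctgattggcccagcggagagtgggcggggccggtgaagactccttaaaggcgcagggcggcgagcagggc
The windows were identical at 247 of 250 bases (98.8%), and each held the pair GAAGATTC at 104 to 97 bases before the start.

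A short stretch of 30 bases is shown for 3 other members, because their windows hold longer or differently placed elements and their transcripts moved in different ways. The Hspe1 stretch (chr1:55088053-55088082, plus strand) lies before the start of Hspe1 and also before 1 RefSeq start of Hspd1, a gene for another mitochondrial chaperone that runs the other way. The Dnajb6 stretch is chr5:29735844-29735873 on the plus strand, and the Hsph1 stretch is chr5:149636351-149636380 on the minus strand. These positions are relative to RefSeq starts. In the GENCODE annotation all 30 bases of the Hspe1 and Dnajb6 stretches and 26 of Hsph1 lie inside annotated exons.
Hspe1: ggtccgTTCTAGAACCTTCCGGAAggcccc
Dnajb6: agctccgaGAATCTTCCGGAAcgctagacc
Hsph1: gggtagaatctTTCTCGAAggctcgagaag
In Hspe1 the capitals run from 89 to 72 bases before its start, and the same bases lie 144 to 127 bases before 1 of the 2 RefSeq starts of Hspd1, with 215 bases between the starts. A run of 3 units, GAANNTTC followed at once by NNGAA on either strand, was found in Dnajb6 and in the stretch that Hspe1 and Hspd1 share. This makes 3 of the 33 members with a window (9.09%), with Hspe1 and Hspd1 both counted for the same bases. Among all 27025 genes with a window 0.514% held such a run, and among the 11272 tested genes with a window 0.479%. Of the 12 HSF1 targets with a window 0 held such a run, but Hspd1 and Hspe1 were not placed in that class. A pair of units was found in 14 of 33 members (42.4%), in 6 of 12 HSF1 targets (50%), in 8 of the 21 other members (38.1%) and in 14.5% of all genes with a window. Among tested genes with a window 12.3% held a pair. Of the 14 members with a pair, 10 were called lower in Valine than in Control, with a median log2 fold change of -0.50, and of the 19 without it 15 were, with a median of -0.57. A match describes letters only, and the windows of 9 members, among them Hspa8, Hsp90aa1, Hsp90ab1, Cryab, Hspb2 and Hsf1, were not used here.

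Between 26750226 and 35976589 reads were counted per library, and levels are given below in CPM after TMM scaling, where a single count is 0.0271 to 0.0403 CPM. On the first principal component over all tested genes (59.5%) the Control libraries lay apart from the 6 others. Control 3 and Val+PA 2 stood apart from their own groups on the second component (15.2%). Control 3 differed by more than 0.5 log2 units from the mean of the other Control libraries in 3 of 42 members and in 17.6% of tested genes, and Val+PA 2 differed as much from its group in 9 members and in 21.3% of genes. Calls of members that changed without either library are given beside the member. The myoblast markers were present, with Myf5, Myod1, Des, Cdh15, Itga7, Vcam1 and Pax7 summing to 2145 to 2462 CPM in Control, 3427 to 3625 in the Valine wells and 3290 to 5265 in the Val+PA wells, while the adipocyte markers Adipoq, Lep and Retn had no count in any library.

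Most chaperone transcripts were lower in the Valine wells than in the Control wells. Of 42 members, 30 were called lower and 1, Hspb2, was called higher (edgeR quasi-likelihood test, Benjamini-Hochberg adjusted over all genes, threshold 0.05), where 21.1% of all 18415 tested genes were called lower, 20.8% higher and 41.9% in either direction. The median log2 fold change of the members was -0.50, and that of all tested genes was -0.005. The transcripts of the 42 genes together held 16279 ± 442 CPM in the Control wells (SD, n = 3), 11501 ± 147 in the Valine wells and 11974 ± 382 in the Val+PA wells. The Control sum was higher in each library than any of the 6 others, and the Valine mean was 29.4% below the Control mean. In bulk RNA, fewer cells of a type and less RNA per cell cannot be told apart. Among the 15 HSF1 targets, 12 were called lower, and Dnajb4, Bag3 and Hsp90ab1 were not called. Groups did not overlap for 32 members that were lower in Valine and for 3 that were higher, against 29.2% and 29.7% of all tested genes (59% in either direction).

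The count of falls was smaller when a Control or Valine library was left out. It was 19 without Valine 1, 18 without Valine 2 and 19 without Valine 3, where 15.0% to 15.7% of all tested genes were called lower, and 21, 24 and 26 without Control 1, 2 and 3, where 17.7% to 18.9% were. At a threshold of 0.01 it was 17. Without Val+PA 2 no fall was lost and Bag3 and Hsp90ab1 were called lower as well, where 24.7% of all tested genes were called lower. By name, 17 of the 30 genes kept the call under every one of the 22 alternative settings tried. These 17 were Hspa1a, Hspa1b, Hspa4, Hspa8, Hspa14 and Hsph1 of the HSP70 family, Dnaja2 and Dnajb1 of its partners, Hsp90aa1, Ahsa1, Fkbp4, Ppid and Cacybp of the HSP90 group, Hspd1 of the mitochondrial chaperones, and Tcp1, Cct3 and Cct6a of CCT. The 13 others lost it under at least 1 setting.

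Markers of muscle differentiation and of other cell types differed between the same groups. All 11 tested of 12 myocyte markers (Myog, Mymk, Mymx, Actc1, Acta1, Myh3 and others) were called higher in both comparisons with Control, and they summed to between 23.5 and 26.4 CPM per Control library, 132 and 141 per Valine library and 102 and 143 per Val+PA library, with Myh8 and Ckm under 1 CPM throughout. Of 9 tested fibroblast and fibro-adipogenic markers 7 were higher in Valine and 8 in Val+PA, with sums of 1164 to 1739, 3399 to 3495 and 3105 to 4288 CPM. Of the 7 myoblast markers 3 were higher in each. The 7 adipocyte markers were each under 1 CPM in every library. The endothelial markers summed to 0.524 to 1.09 CPM in Control libraries, 2.45 to 3.05 in Valine libraries and 2.36 to 3.49 in Val+PA libraries, with Emcn at 0, and 2 of 2 tested were higher in Valine. The immune markers summed to 1.81 to 2.98, 4.84 to 5.96 and 5.67 to 7.06 CPM, with Itgam at 0, and of 2 tested 1 was higher and 1 lower. The part of these shifts in the chaperone results was not tested.

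**Figure D1:**
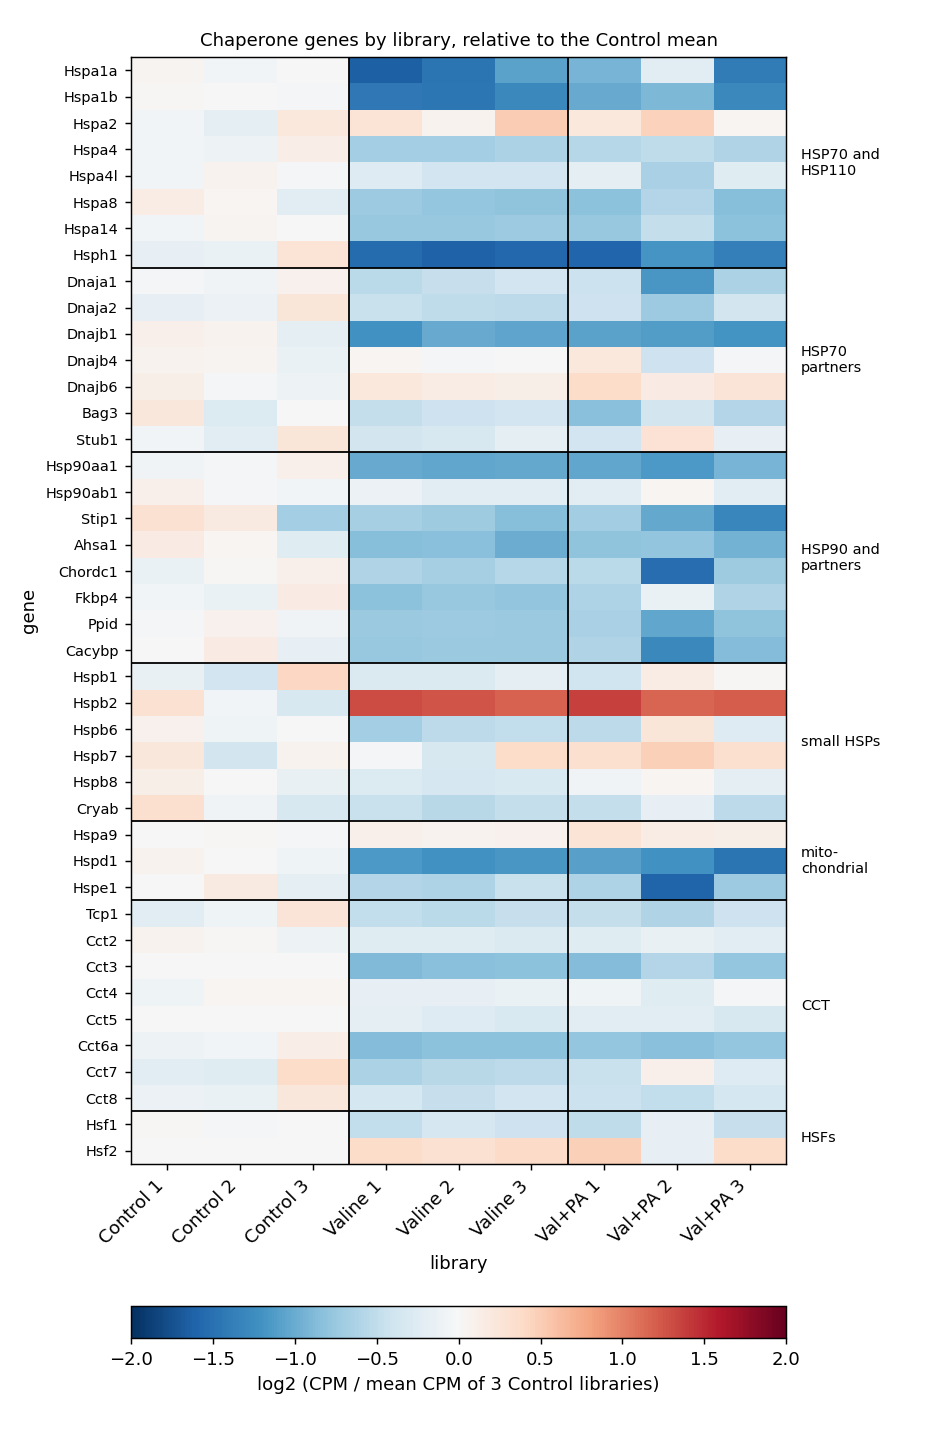
Level of each of the 42 genes (rows, grouped by role) in each of the 9 libraries (columns) as log2 of its CPM over the mean CPM of the 3 Control libraries, with blue for lower and red for higher. The Valine and Val+PA columns are blue for most genes, Hspb2 is red in all 6 of them, and Val+PA 2 departs from its neighbours in Hspa1a, Chordc1 and Hspe1.

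Most of the HSP70 family fell, and its stress-inducible genes had the largest fold changes. In Valine against Control 7 of 8 members were called lower, with a median log2 fold change of -0.76, and the same number was called lower in Val+PA against Control, where 18.8% of all tested genes were called lower, 20.4% higher and 39.2% in either direction. Changes given below for Valine or for Val+PA are against Control unless said otherwise, and these comparisons share the Control libraries and are not independent of each other. Over all 42 members 26 were called lower and 2 higher in Val+PA against Control, with a median log2 fold change of -0.46, and at an unadjusted p under 0.05 there were 28 and 2 (all genes 23% lower, 24.3% higher and 47.4% in either direction). Groups did not overlap for 27 lower and 4 higher members, against 22.1% and 23.5% of all genes (45.5% in either direction). Of the HSF1 targets 13 of 15 were called lower. Hspa2, an HSP70 best known from the testis, was not called (in Valine it passed only without both Control 3 and Val+PA 2, at a log2 fold change of 0.42 and an edgeR adjusted p of 0.0483), with 3.56 ± 0.501 CPM in Control, 4.36 ± 0.677 in the Valine wells and 4.22 ± 0.632 in the Val+PA wells.

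Hspa1b (chr17:34956436-34959238, minus strand), a stress-inducible HSP70, had 30.3, 29.7 and 29 CPM in Control 1 to 3, 11, 10.9 and 12.1 in Valine 1 to 3, and 14.7, 15.9 and 12.2 in Val+PA 1 to 3. Every Control value was above every other, and the Val+PA values all lay above the Valine values. The level was 2.62-fold lower in Valine than in Control (log2 fold change -1.39, SE 0.12, edgeR adjusted p = 4.82e-06) and 2.08-fold lower in Val+PA than in Control (-1.05, SE 0.12, edgeR adjusted p = 3.64e-05). Hspa1a (chr17:34969190-34972156, minus strand), its near-identical neighbour 9951 bases away, had 10.2, 9.48 and 9.75 CPM in Control, 3.18, 3.58 and 4.69 in the Valine wells, and 5.16, 8.49 and 3.74 in the Val+PA wells. The Control wells were again highest, but Val+PA 2 came close to them. The fall was 2.57-fold in Valine (-1.36, SE 0.26, edgeR adjusted p = 0.00117) and 1.69-fold in Val+PA (-0.76, SE 0.25, edgeR adjusted p = 0.0299). The Val+PA call of Hspa1a was lost when any of Control 1, Control 2, Val+PA 1 or Val+PA 3 was left out, with an adjusted p of up to 0.109 over all settings. Between these copies reads can be misassigned, since 46.0% of the 150-base words of the Hspa1a transcript also occur in other genes, most of them in Hspa1b. Their sum, which such a swap between the copies leaves as it is, was 39.5 ± 0.891 CPM in Control, 15.2 ± 1.43 in the Valine wells and 20.1 ± 4.21 in the Val+PA wells.

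Hsph1, the HSP110 chaperone that resets HSP70 by exchanging its nucleotide, had the largest fall of all 42 members in both comparisons with Control. It lies at chr5:149614287-149636376 on the minus strand and had 88.2, 90.1 and 120 CPM in Control, 34.0, 32.4 and 33.3 in the Valine wells, and 33.1, 43.8 and 38.5 in the Val+PA wells. Every Control value was at least 2 times any other value. The log2 fold change was -1.58 in Valine (SE 0.14, edgeR adjusted p = 4.86e-06), which is 2.99-fold, and -1.37 in Val+PA (SE 0.14, edgeR adjusted p = 1.38e-05).

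Hspa8, the constitutive HSC70 that folds new proteins and uncoats clathrin, lies at chr9:40800984-40810087 on the plus strand. It had 2294, 2119 and 1762 CPM in Control, 1249, 1208 and 1178 in the Valine wells, and 1164, 1374 and 1141 in the Val+PA wells. The lowest Control value, that of Control 3, still lay above all the others. It changed by a log2 fold change of -0.76 in Valine (SE 0.12, edgeR adjusted p = 0.000254) and -0.75 in Val+PA (SE 0.12, edgeR adjusted p = 0.000314). Because 56.0% of its 150-base words recur in 5 other genes, 4 of them pseudogenes, some of its reads may be shared. Values per length below use the deposited normalized signal, whose factor for each gene was not checked against transcript lengths. Per length Hspa8 made up 96.9 ± 0.399% of the cytosolic HSP70 signal (Hspa1a, Hspa1b, Hspa2 and Hspa8) in Control, 97.6 ± 0.306% in the Valine wells and 97.1 ± 0.313% in the Val+PA wells. The inducible pair, with the larger log2 fold changes in Valine, formed a few percent of the pool throughout. Of the remaining called members, the exchange factors Hspa4 and Hspa4l changed by -0.66 and -0.34 in Valine on the log2 scale, and Hspa14, which works at the ribosome, by -0.75. The Hspa4l call, with an edgeR adjusted p of 0.0411 in both comparisons, was lost in 12 of 22 settings for Valine and in 14 for Val+PA. For Val+PA these include leaving out Control 3 (log2 fold change -0.35, edgeR adjusted p = 0.0549) and Val+PA 2 (-0.21, edgeR adjusted p = 0.055), and for Valine leaving out Control 3 (-0.34, edgeR adjusted p = 0.06).

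Among the partners of HSP70 the response was mixed. In Valine 3 of 7 were called lower (Dnajb1, Dnaja1 and Dnaja2), and in Val+PA 4 were called lower and 1 higher. Dnajb1, the heat-inducible HSP40 (chr8:83608193-83612653, plus strand), had 84.6, 82.8 and 70.1 CPM in Control, 34.1, 39.4 and 38.0 in the Valine wells, and 37.9, 36.7 and 34.4 in the Val+PA wells. The treated wells lay close together and did not overlap the Control wells. The log2 fold change was -1.09 in Valine (SE 0.11, edgeR adjusted p = 1.17e-05) and -1.12 in Val+PA (SE 0.11, edgeR adjusted p = 9.64e-06).

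Dnajb6, a J-domain protein that keeps other proteins from aggregating, went the other way. It had 150, 136 and 130 CPM in Control, 161, 154 and 150 in the Valine wells, and 180, 155 and 167 in the Val+PA wells. Val+PA values were all above the Control values, while Valine 3 overlapped Control 1. Its call in Val+PA against Control (log2 fold change 0.27, SE 0.10, edgeR adjusted p = 0.0445) was lost in 11 of 22 settings, including the removal of Control 2, Control 3, Val+PA 1, Val+PA 3 or any Valine library. In Valine its log2 fold change was 0.16 (SE 0.10, edgeR adjusted p = 0.22). Dnaja1, a J-domain protein that works with HSC70, had 83.3, 80.7 and 90.3 CPM in Control, 58.6, 61.5 and 65.2 in the Valine wells, and 62.7, 37.9 and 54.4 in the Val+PA wells. Val+PA 2 was the lowest of the 9. Its log2 fold change was -0.46 in Valine (SE 0.15, edgeR adjusted p = 0.0315), a call lost in 10 of 22 settings, Control 3 left out among them (edgeR adjusted p = 0.0792), and -0.71 in Val+PA (SE 0.15, edgeR adjusted p = 0.00305). Bag3, which links HSP70 to selective autophagy, was at 8.97 ± 1.55 CPM in Control, 6.69 ± 0.202 in the Valine wells and 5.99 ± 0.934 in the Val+PA wells, and it was called lower in Val+PA (edgeR adjusted p = 0.0147) and not in Valine (edgeR adjusted p = 0.0576), with no call between these groups. The Bag3 call in Val+PA was lost without Control 1 and without Val+PA 1, and a call in Valine appeared in 6 settings, among them without Val+PA 2 (edgeR adjusted p = 0.033). Dnajb4 and the ubiquitin ligase Stub1 were not called in any comparison.

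The HSP90 group fell except for its most abundant gene. In each comparison with Control 7 of 8 members were called lower, with median log2 fold changes of -0.74 in Valine and -0.85 in Val+PA. Hsp90aa1, the stress-inducible cytosolic HSP90 (chr12:110690605-110702728, minus strand), had 1998, 2040 and 2262 CPM in Control, 1044, 1022 and 1037 in the Valine wells, and 1019, 943 and 1097 in the Val+PA wells. The treated wells lay within a narrow band far below the Control wells. The fall was 2.03-fold in Valine (log2 fold change -1.02, SE 0.09, edgeR adjusted p = 6.14e-06) and 2.06-fold in Val+PA (-1.04, SE 0.09, edgeR adjusted p = 5.17e-06). Of its 150-base words 36.2% recur in 3 pseudogenes.

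Hsp90ab1, the constitutive form (chr17:45567775-45573271, minus strand), had 2521, 2285 and 2263 CPM in Control, 2167, 2028 and 2013 in the Valine wells, and 2045, 2419 and 2041 in the Val+PA wells. The Valine wells were below the Control wells by a small margin, and Val+PA 2 lay among the Control wells. Its log2 fold change was -0.19 in Valine (SE 0.10, edgeR adjusted p = 0.151) and -0.12 in Val+PA (SE 0.10, edgeR adjusted p = 0.368). Without Val+PA 2 the Valine value passed the threshold, and over the settings tried the adjusted p of Hsp90ab1 in Valine ran from 0.00446 to 0.52. Without both Control 3 and Val+PA 2 it was called lower in Val+PA too (-0.23, edgeR adjusted p = 0.00501). The difference between the genes was taken within each library as log2 of the Hsp90aa1 level over the Hsp90ab1 level. This ratio was -0.17 ± 0.17 in the Control wells, -1.0 ± 0.05 in the Valine wells and -1.09 ± 0.24 in the Val+PA wells, with no overlap between Control and the others (exact two-sided permutation test, p = 0.1 for each, the smallest that 3 against 3 allows). Per length Hsp90aa1 made up 40.5 ± 2.79% of the pair in Control, 27.6 ± 0.678% in the Valine wells and 26.5 ± 3.2% in the Val+PA wells.

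All 6 partners of HSP90 were called lower in both comparisons with Control. Ahsa1, which stimulates the HSP90 ATPase, changed by -0.89 in Valine and -0.84 in Val+PA on the log2 scale, and the immunophilin Ppid by -0.74 and -0.82. Cacybp, a protein with an HSP90-binding fold like that of SGT1, changed by -0.75 and -0.89. Fkbp4, the immunophilin of steroid receptor complexes, had 322, 305 and 375 CPM in Control, 189, 197 and 193 in the Valine wells, and 217, 304 and 219 in the Val+PA wells. Val+PA 2 came close to the lowest Control well while its 2 companions stayed near the Valine level. The log2 fold change of Fkbp4 was -0.79 in Valine (SE 0.14, edgeR adjusted p = 0.000659) and -0.44 in Val+PA (SE 0.14, edgeR adjusted p = 0.0231), and the second call was lost without Control 3, Val+PA 1 or Val+PA 3. Stip1, which hands clients from HSP70 to HSP90, had 218 and 200 CPM in Control 1 and 2 but 110 in Control 3, inside the range of the Valine wells (97.6 to 111). It was called lower in Valine (log2 fold change -0.73, SE 0.22, edgeR adjusted p = 0.0188) although the groups overlapped, and the call was lost without Control 1, Control 2, Valine 2 or Valine 3. Chordc1, an HSP90 partner with zinc-binding domains, was at 141 ± 11.4 CPM in Control, 92.0 ± 3.1 in the Valine wells and 77.4 ± 25.2 in the Val+PA wells, where Val+PA 2 had 49.0. Its Valine call (edgeR adjusted p = 0.0241) was lost without any of Control 2, Control 3, Valine 1, Valine 2 or Valine 3.

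**Figure D2:**
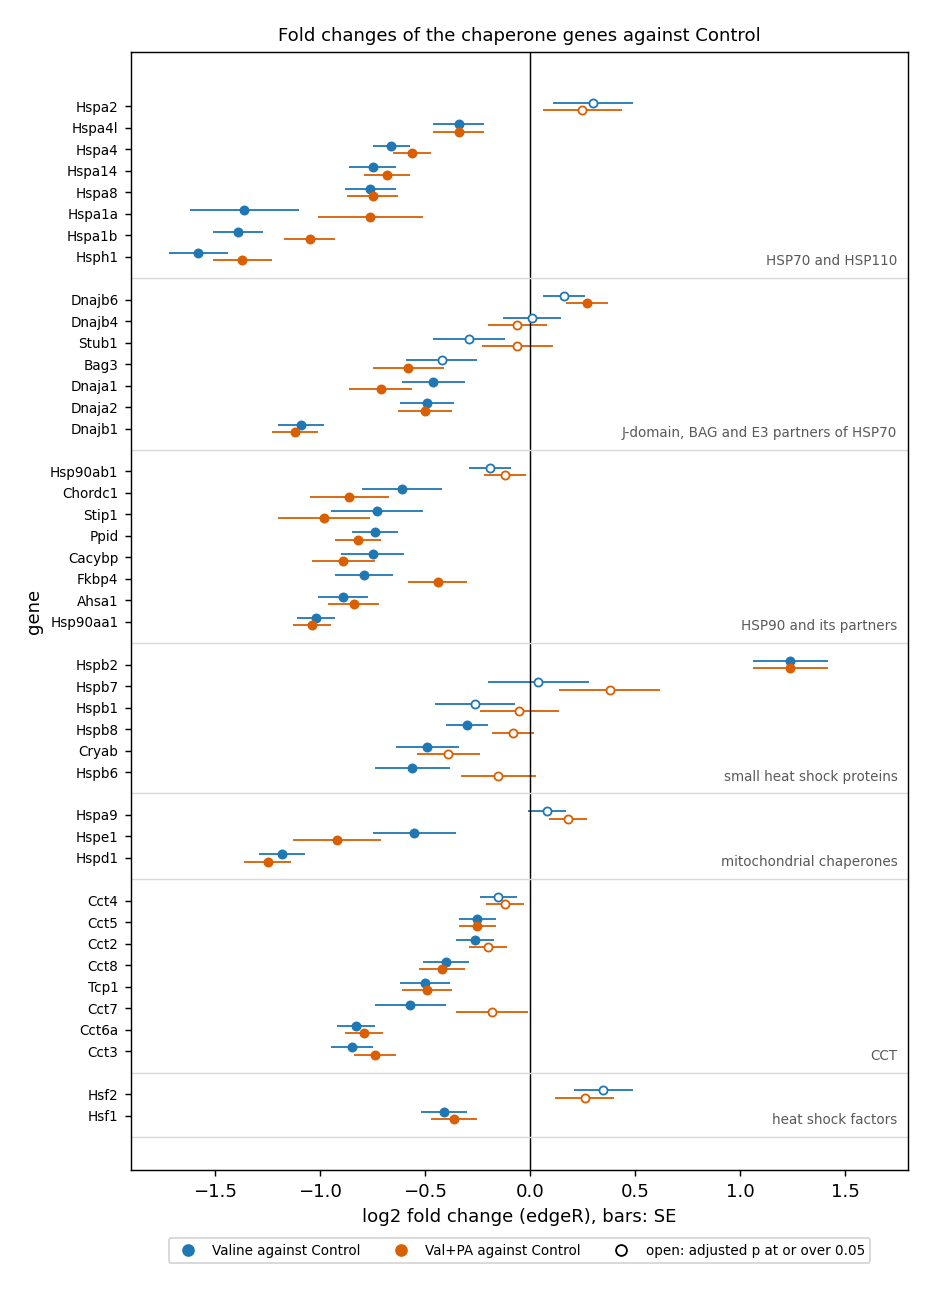
Log2 fold change of each member (rows, grouped by role) for Valine against Control (blue) and Val+PA against Control (orange) from edgeR, with bars of 1 SE and open circles where the adjusted p was 0.05 or more. Most points lie left of 0, Hsph1 lies farthest left at -1.58 in Valine, and Hspb2 lies at 1.24 in both comparisons.

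**Figure D3:**
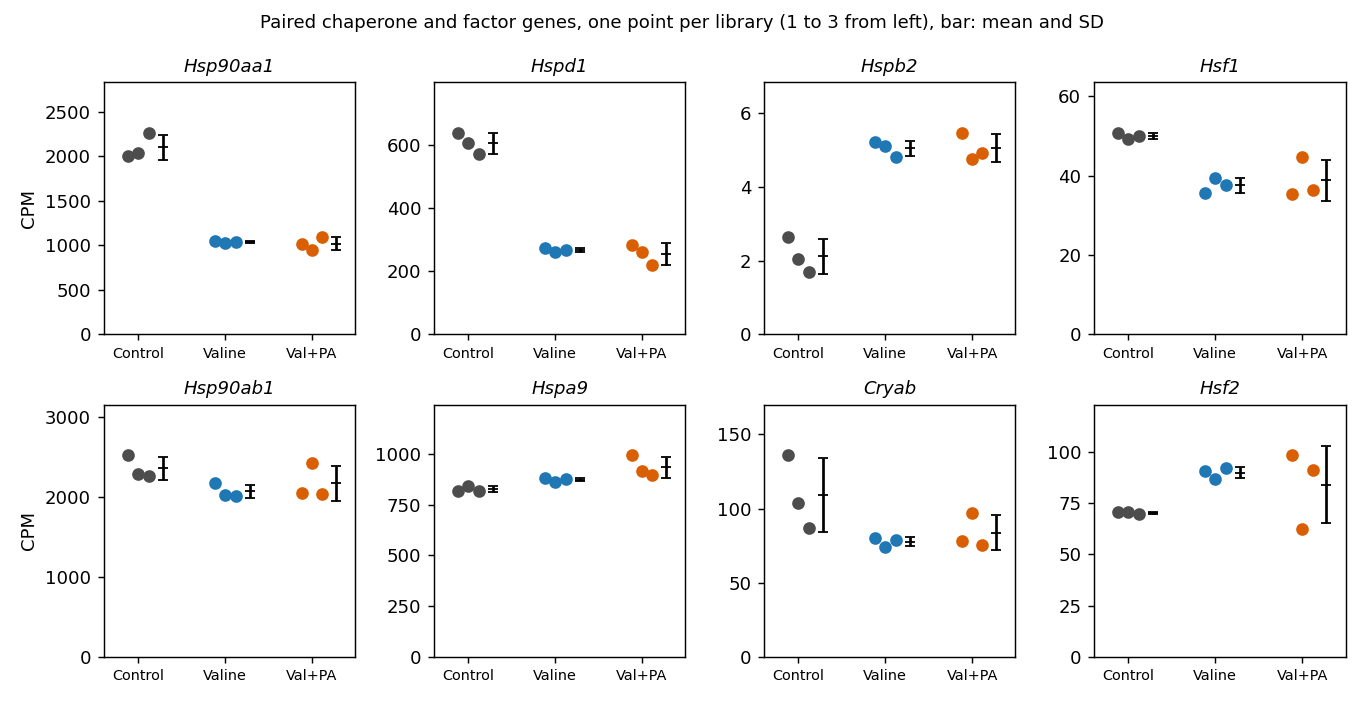
CPM of 8 genes in 4 pairs (columns), with a point for each library and the mean ± SD of 3 libraries beside the points, all axes starting at 0. Hsp90aa1 and Hspd1 are lower in both treated groups while Hsp90ab1 and Hspa9 stay near the Control level, and Hspb2 is higher where its neighbour Cryab is not.

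The small heat shock proteins did not move together. In Valine 3 of 6 were called lower (Hspb6, Hspb8 and Cryab) and Hspb2 was called higher. In Val+PA none was called lower with all 9 libraries in the edgeR fit (Cryab alone had an unadjusted p under 0.05), and Hspb2 was called higher. That count rests on the libraries that stand apart: without both of them edgeR called Hspb6, Hspb8 and Cryab lower. Hspb1, the mouse Hsp25 and by far the most abundant of them, was at 1201 ± 360 CPM in Control, 1005 ± 41.0 in the Valine wells and 1156 ± 221 in the Val+PA wells, and was not called. Control 3 alone had 1607 CPM against 1078 and 919 in the other Control wells. Per length Hspb1 made up 88.7 ± 3.66% of the class in Control, 89.9 ± 0.398% in the Valine wells and 90.0 ± 1.66% in the Val+PA wells.

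Hspb2, a small heat shock protein of muscle, had the only called rise among the members in Valine. It lies at chr9:50751078-50752354 on the minus strand and had 2.63, 2.04 and 1.69 CPM in Control, 5.22, 5.09 and 4.81 in the Valine wells, and 5.46, 4.74 and 4.91 in the Val+PA wells. All 6 treated wells were above all Control wells. The rise was 2.36-fold in Valine (log2 fold change 1.24, SE 0.18, edgeR adjusted p = 0.000187) and 2.36-fold in Val+PA (1.24, SE 0.18, edgeR adjusted p = 0.000198), and no alternative setting removed either call. Hspb2 starts beside Cryab, which runs the other way (chr9:50751325-50756636, plus strand), and the annotated genes overlap by 1030 bases. The strand setting of the counting is not given in the sources used here, so reads in the overlap may have been counted for either gene or for neither.

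Cryab, alpha-B crystallin, had 136, 104 and 86.9 CPM in the Control wells and 77.6 ± 2.93 in the Valine wells, and was called lower there (log2 fold change -0.49, SE 0.15, edgeR adjusted p = 0.0229). The call was lost in 9 of 22 settings, including the removal of Control 1 or of any Valine library. In Val+PA it was at 83.6 ± 11.7 CPM (-0.39, SE 0.15, edgeR adjusted p = 0.066) and was not called. It was called lower there in 5 settings, which were DESeq2, edgeR with no filter, and edgeR without Control 3 (-0.52, adjusted p = 0.0106), without Val+PA 2 (-0.51, adjusted p = 0.0215) and without both (-0.64, adjusted p = 3.29e-05). The log2 ratio of Hspb2 over Cryab was -5.69 ± 0.01 in the Control wells, -3.95 ± 0.08 in the Valine wells and -4.05 ± 0.27 in the Val+PA wells, without overlap between Control and either group (exact two-sided permutation test, p = 0.1 for each). In the deposited counts the neighbours changed by different amounts. Reads in their overlap bear on this ratio, and how these were assigned is not known.

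Hspb6, the small heat shock protein also called Hsp20, had 10.2, 9.02 and 9.55 CPM in Control, 5.98, 6.66 and 6.86 in the Valine wells, and 6.65, 11.3 and 8.04 in the Val+PA wells. Valine wells were all lower than Control wells, and Val+PA 2 was the highest of all 9. The log2 fold change in Valine was -0.56 (SE 0.18, edgeR adjusted p = 0.027), a call lost without Control 1 or any Valine library. In Val+PA it was -0.15 (SE 0.18, edgeR adjusted p = 0.545), and -0.39 at its lowest over the settings, with calls when Val+PA 2 was left out. Hspb8, the partner of Bag3 in selective autophagy, changed by -0.30 in Valine (edgeR adjusted p = 0.0351, lost in 11 of 22 settings), and in Val+PA by -0.20 without both Control 3 and Val+PA 2 (edgeR adjusted p = 0.031) where with all libraries it was not called. Hspb7, a muscle and heart protein, was at 1.45 ± 0.296 CPM in Control and was not called.

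The mitochondrial chaperones split. Hspd1, the HSP60 ring that folds proteins inside the mitochondrion (chr1:55077835-55088243, minus strand), had 639, 607 and 572 CPM in Control, 273, 262 and 269 in the Valine wells, and 285, 261 and 219 in the Val+PA wells. The lowest Control well had more than any treated well by a wide margin. The fall was 2.26-fold in Valine (log2 fold change -1.18, SE 0.11, edgeR adjusted p = 5.81e-06) and 2.37-fold in Val+PA (-1.25, SE 0.11, edgeR adjusted p = 3.59e-06).

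Hspe1, the HSP10 lid of that ring (chr1:55088132-55091307, plus strand), had 46.0, 52.3 and 40.3 CPM in Control, 30.9, 30.1 and 33.9 in the Valine wells, and 30, 15.3 and 27.8 in the Val+PA wells. The treated wells were all lower, with Val+PA 2 lowest. The log2 fold change was -0.55 in Valine (SE 0.20, edgeR adjusted p = 0.0481), a call lost in 13 of 22 settings and with the replicate number as a block, and -0.92 in Val+PA (SE 0.21, edgeR adjusted p = 0.00366), a call that no setting removed. These genes start beside each other in opposite directions and overlap by 112 bases in the annotation of the counted genes. Within libraries the log2 ratio of Hspd1 over Hspe1 was 3.72 ± 0.16 in the Control wells and 3.08 ± 0.08 in the Valine wells without overlap (exact two-sided permutation test, p = 0.1), and 3.44 ± 0.58 in the Val+PA wells, which overlapped Control (exact p = 0.5). Both genes fell in Valine, Hspd1 with the larger log2 fold change.

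Hspa9, the mitochondrial HSP70 that pulls proteins through the import channel, was at 826 ± 13.5 CPM in Control, 873 ± 9.08 in the Valine wells and 935 ± 51.7 in the Val+PA wells. With all libraries it was not called in any comparison (log2 fold change 0.08, SE 0.09, in Valine and 0.18, SE 0.09, edgeR adjusted p = 0.119, in Val+PA). Without both Control 3 and Val+PA 2 it was called higher in Val+PA (0.19, edgeR adjusted p = 0.0185). The log2 ratio of Hspd1 over Hspa9 went from -0.45 ± 0.08 in the Control wells to -1.70 ± 0.01 in the Valine wells and -1.88 ± 0.13 in the Val+PA wells, and no groups overlapped (exact two-sided permutation test, p = 0.1 for each of the 3 comparisons). Per length, Hspd1 held 50.7 ± 1.32% of the signal of these 3 genes in Control, 31.2 ± 0.199% in the Valine wells and 29.2 ± 2.11% in the Val+PA wells, and Hspa9 held 42.4 ± 1.35%, 62.3 ± 0.337% and 65.8 ± 1.44%. On this signal Hspd1 was the largest of the 3 in Control and Hspa9 the largest in the other groups. In CPM, Hspa9 was above Hspd1 in Control too, at 826 against 606, so the order in Control depends on the scaling.

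CCT is built from 8 different subunits in equal numbers, and the fold changes of its transcripts spanned a wide range. In Valine 7 of 8 were called lower, Cct4 being the exception, and in Val+PA 5 were. The fold changes of the subunits ran from -0.85 for Cct3 to -0.15 for Cct4 in Valine and from -0.79 for Cct6a to -0.12 for Cct4 in Val+PA. Cct3 (chr3:88297116-88321767, plus strand) had 544, 543 and 547 CPM in Control, 296, 304 and 309 in the Valine wells, and 299, 365 and 318 in the Val+PA wells. Control wells were almost the same and far above the rest. Cct3 changed by -0.85 on the log2 scale in Valine (SE 0.10, edgeR adjusted p = 3.03e-05) and -0.74 in Val+PA (SE 0.10, edgeR adjusted p = 8.93e-05).

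Cct6a (chr5:129786998-129846371, plus strand) had 639, 663 and 755 CPM in Control, 377, 388 and 389 in the Valine wells, and 402, 385 and 400 in the Val+PA wells. The treated wells lay close together and far below the Control wells. Cct6a changed by -0.83 on the log2 scale in Valine (SE 0.09, edgeR adjusted p = 2.59e-05) and -0.79 in Val+PA (SE 0.09, edgeR adjusted p = 3.88e-05). Cct7 had 215, 212 and 322 CPM in Control, 162, 171 and 173 in the Valine wells, and 184, 268 and 208 in the Val+PA wells. Both libraries that stand apart, Control 3 and Val+PA 2, had its highest values. The Cct7 call in Valine (log2 fold change -0.57, SE 0.17, edgeR adjusted p = 0.0192) was lost without Control 3 or any Valine library. The calls of Cct2 and Cct5 in Valine, at log2 fold changes of -0.26 and -0.25, were lost in 11 and 13 of 22 settings. In Val+PA Cct2 was not called with all libraries, but it was called lower without Control 3 (-0.25, edgeR adjusted p = 0.0294) and without Val+PA 2 (-0.22, edgeR adjusted p = 0.0372). In Valine Tcp1 and Cct8 changed by -0.50 and -0.40.

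Per length the share of Cct6a in the CCT signal went from 18.6 ± 0.585% in the Control wells to 14.1 ± 0.328% in the Valine wells and 14.1 ± 0.291% in the Val+PA wells. The share of Cct3 went from 8.14 ± 0.425% to 6.08 ± 0.174% and 6.39 ± 0.69%. The share of Cct4, whose own level was not called, was 15.7 ± 0.638%, 19.0 ± 0.288% and 18.9 ± 1.26%. For these 3 subunits the Control shares did not overlap the others. Cct7 had the smallest share in all groups, between 3.02% and 4.94%. The shares are given as a description, with no test. They depend on the gene factors of the deposited signal, so they do not give the numbers of transcripts of the subunits relative to each other.

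**Figure D4:**
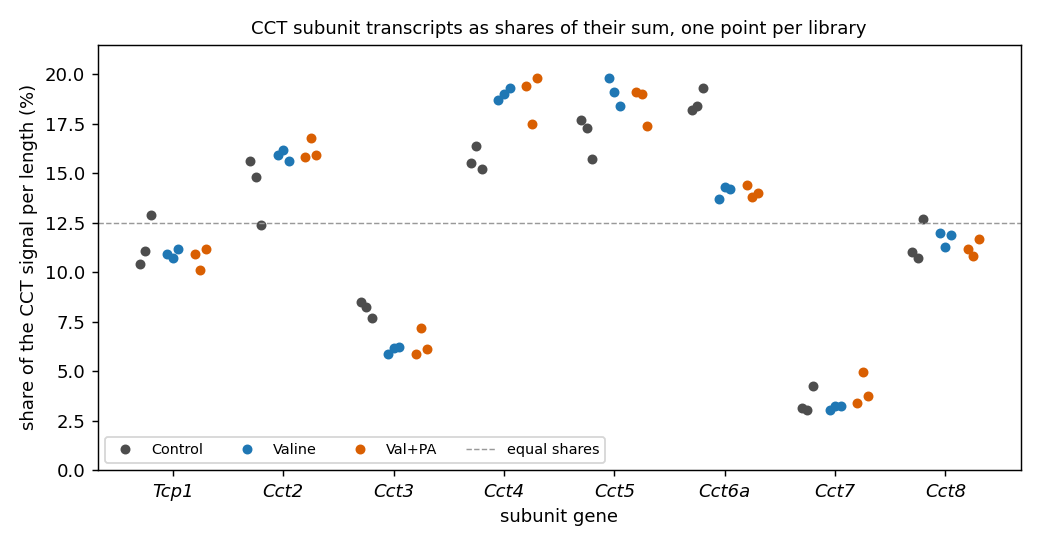
Share of each CCT subunit in the summed deposited normalized signal of the 8 subunits (vertical axis, percent), with a point for each library and a dashed line at equal shares. The gene factors of this signal were not checked against transcript lengths, so distances from the dashed line depend on them. Cct6a goes from 18.6% in Control to 14.1% in Valine and Cct4 from 15.7% to 19.0%, while Cct7 lies lowest in every group.

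Of the heat shock factors Hsf1 was called lower in both comparisons with Control and Hsf2 was not called. Hsf1, the main heat shock factor (chr15:76477422-76501913, plus strand), had 50.8, 49.3 and 49.9 CPM in Control, 35.6, 39.5 and 37.6 in the Valine wells, and 35.3, 44.7 and 36.5 in the Val+PA wells. All treated wells were below all Control wells. Its log2 fold change was -0.41 in Valine (SE 0.11, edgeR adjusted p = 0.0115), a call lost without Valine 1, and -0.36 in Val+PA (SE 0.11, edgeR adjusted p = 0.022), a call lost without Control 1, Control 2, Val+PA 1 or Val+PA 3. Hsf2, a factor active in development that can pair with HSF1, had 70.5, 70.5 and 69.8 CPM in Control, 90.5, 86.8 and 91.9 in the Valine wells, and 98.3, 62.5 and 91.0 in the Val+PA wells. Valine wells were all above Control wells, and Val+PA 2 was the lowest of all. Its log2 fold change was 0.35 in Valine (SE 0.14, edgeR adjusted p = 0.0656). Leaving out Val+PA 1 or Val+PA 2 made it a call, and over all settings its adjusted p ran from 0.000214 to 0.153. In Val+PA it was 0.26 (SE 0.14, edgeR adjusted p = 0.178), and it was called when Val+PA 2 was left out. The log2 ratio of Hsf1 over Hsf2 was -0.49 ± 0.02 in the Control wells, -1.26 ± 0.11 in the Valine wells (exact two-sided permutation test against Control, p = 0.1) and -1.09 ± 0.53 in the Val+PA wells (exact p = 0.3). HSF1 protein and its binding to DNA were not measured.

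Between the Val+PA and Valine wells no chaperone transcript changed past the threshold. These groups differ in palmitic acid, in the labelled valine time (24 h against 36 h) and in plate, and these cannot be told apart. In Val+PA against Valine 0 of 42 members were called by edgeR, as were 0 of all 18415 genes (percent called 0), and DESeq2 called 212 genes but no member. At an unadjusted p under 0.05 there were 5 members, all higher in Val+PA, against 13.2% of all genes in either direction, 5.47% lower and 7.72% higher. They were Hspa1b (log2 fold change 0.33, SE 0.12), Fkbp4 (0.35, SE 0.14), Hspa1a (0.60, SE 0.26), Hspb6 (0.41, SE 0.18) and Cct7 (0.38, SE 0.17), with edgeR adjusted p-values of 0.338 to 0.372. In all 5 genes Val+PA 2 was the highest of the 6 Valine and Val+PA wells. Groups did not overlap for 7 members that were higher and 1 that was lower, against 12.6% and 12% of all genes (24.6% in either direction). The lower one was Hspe1 (-0.38, SE 0.20, edgeR adjusted p = 0.424), and Hspd1 and Hsf2 were at -0.07 (SE 0.11) and -0.10 (SE 0.14). Hsp90aa1 was at -0.02 (SE 0.09) and Hspa8 at 0.02 (SE 0.12). A missed threshold does not show that palmitic acid left these transcripts as they were.

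Other genes of the chaperone network were called lower about as often as all genes. Of 69 further genes in 6 lists 67 were tested, and 16 were called lower and 4 higher in Valine against Control, with a median log2 fold change of -0.10; in Val+PA 15 were lower and 5 higher. The share called lower in Valine, 23.9%, is near the 21.1% of all tested genes, and the share called higher, 5.97%, stands against 20.8%. In Val+PA the shares were 22.4% and 7.46%, against 18.8% and 20.4%. Among 21 other HSP70 partners 7 were lower and 1 higher in Valine. Hspbp1, an exchange factor for HSP70, had the largest called fall (-0.88, SE 0.21, edgeR adjusted p = 0.00587), and Dnajb14, a J protein of the endoplasmic reticulum, was the riser (0.40, SE 0.13, edgeR adjusted p = 0.0253). Among 14 other HSP90 partners 4 were lower and 1 higher. Fkbp5, an immunophilin induced by glucocorticoids, went from 18.9 ± 2.54 CPM in the Control wells to 7.94 ± 0.841 in the Valine wells (-1.25, SE 0.17, edgeR adjusted p = 0.000144).

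The riser of that list was Unc45b, the chaperone that folds myosin in striated muscle. It had 0.289, 0.456 and 0.403 CPM in Control, 1.87, 2.44 and 2.05 in the Valine wells, and 1.87, 2.69 and 1.14 in the Val+PA wells, so that all treated wells were above the Control wells (log2 fold change 2.46, SE 0.35, edgeR adjusted p = 0.000156 in Valine). Its general relative Unc45a fell from 33.6 ± 4.28 to 21.6 ± 1.5 CPM in Valine (-0.64, SE 0.18, edgeR adjusted p = 0.0143). Unc45a falls outside the rule for named genes and was chosen after its values were seen. Among 14 prefoldin, CCT cofactor and tubulin folding genes 2 were lower and none higher, with Txndc9, a regulator of CCT, at -0.29 (SE 0.09, edgeR adjusted p = 0.0157). Of 12 other mitochondrial chaperones and proteases 2 were lower and 2 higher. Htra2, a protease between the mitochondrial membranes, changed by -1.09 (SE 0.16, edgeR adjusted p = 0.000215), and Hscb, the J protein of iron-sulfur cluster assembly, by 1.23 (SE 0.18, edgeR adjusted p = 0.000232). Of 3 other small heat shock proteins only Hspb9 had enough counts, and it was not called. Of 5 other heat shock factors and regulators Hsf5 was lower (-2.66, SE 0.42, edgeR adjusted p = 0.000329), from 0.987 ± 0.233 CPM in Control to 0.152 ± 0.0737 in Valine.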

How the data were processed

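The data are RNA-seq of 9 C2C12 libraries, 3 per group, with groups from the labels. The submitters' processing notes list HISAT2, featureCounts, DESeq2 and GRCm38, with neither versions nor settings. Library preparation kept strand per the labels' protocols; whether counting used it is not given in the sources used here. One deposited table gives raw counts of reads for every gene. The deposited normalized signal equals each count times a factor of the gene and 1 of the library (100% of values within 1%, over 11657 genes with at least 50 counts), and it served for shares per length and as an alternative. The factor of the gene was taken to stand for length and was not checked against transcript lengths, so the order of genes by share depends on it. Val+PA columns were matched to the labels through a shortened form of the label's code.

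Symbols and coordinates came from GENCODE M21 of GRCm38 (52093 of 53700 IDs, 97%), and sequences from RefSeq on GRCm38.p6. Genes kept by filterByExpr (18415) were scaled by TMM; the quasi-likelihood fit of edgeR 4.0.16 (R 4.3.3) held all 9 libraries and group means only. Tests were two-sided, with Benjamini-Hochberg adjustment over all genes at 0.05. The SE is the absolute log2 fold change over the square root of F. The method was tested on simulated counts. Replicates of a group differed beyond sampling noise (chi-square per gene 3.99 to 118). Shared sequence was counted as 150-base words of each member's longest transcript found in other genes' transcripts. Values with n = 3 per group have no exact test below p = 0.1.

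The members and lists were chosen with earlier results of these data known. Described in full are, per role class and comparison, the strongest called riser and faller, or failing a call the member of smallest p, plus Hspa1a, Hspa1b, Hsp90aa1, Hsp90ab1, Hspa8, Hsf1 and Hspd1; other genes of the pathway are named by largest called rise and fall per list in Valine against Control. Alternatives were DESeq2 1.42.0, limma-voom (limma 3.58.1), RLE factors, scaling by library size alone, dropping the filter, a filter of 1 CPM in 3 libraries, 2 groups alone, a replicate block, each library left out, Control 3 and Val+PA 2 left out together, a 0.01 threshold, and limma applied to log2 of the signal plus 1 or plus 0.1 (genes with a mean of at least 0.5) and plus 1 without that filter.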

Additional observations from a re-analysis of the deposited data

How the results depend on the processing

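Under 22 alternative settings no fold change of a member reversed among those called. For Valine against Control the 30 falls became 17 at a threshold of 0.01 and 19 on log2 of the normalized signal plus 1 without a filter, where 9.29% of all genes were called lower. They ranged from 18 to 32 when single libraries were left out, with the lowest when a Valine library was missing, and were 32 without both Control 3 and Val+PA 2. All genes called lower were 15.0% to 24.7% with single libraries left out and 27.2% without both. The single rise became 2 with library size alone, with no filter and with 2 groups alone, 3 without both libraries, and ranged from 1 to 2 when single libraries were left out. In the same order 23.2%, 12.7%, 24.7%, 27.0% and 15.8% to 24.0% of all genes were called higher. For Val+PA against Control the 26 falls stayed between 20 and 31. All genes called lower there were 8.76% on log2 of the normalized signal plus 1 without a filter, the lowest share. The highest was 24.6%, without both libraries. These shares leave out the threshold of 0.01. The 2 rises became 1 with RLE factors, with no filter, with 2 groups alone and at a threshold of 0.01, became 4 without both libraries, and ranged from 1 to 3 when single libraries were left out. Val+PA against Valine had 0 called members in every setting. The cause of these shifts was not tested. Leaving out libraries takes residual degrees of freedom away, and a group left with 2 libraries shares its spread with the others. Same-numbered libraries did not deviate together (correlations of -0.272 to 0.158), so the numbers only name wells. With the replicate number as a block, 28 members were lower and 1 higher in Valine, and 26 lower and 2 higher in Val+PA against Control. Over all genes Val+PA against Valine had no call in the edgeR fit, 80 lower and 132 higher with DESeq2, 287 lower and 476 higher in edgeR with no filter, 2 lower on log2 of the normalized signal plus 1 without a filter, and 292 lower and 312 higher without both libraries. Scaling alternatives moved the median of all genes by at most 0.073 on the log2 scale. The members with the fewest counts over all 9 libraries were Hspb7 with 473, Hspa2 with 1194 and Hspb2 with 1230, and of these Hspb2 kept its calls in every setting.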
